A study of Mus musculus with 8 samples.

Results

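The genes described here are 10 transcripts that T cells, gamma delta T cells and natural killer cells carry in skin: Cd3d, Cd3e, Cd3g, Cd247, Trdc, Xcl1, Nkg7, Il2rb, Klrd1 and Cd7. They were chosen by name, all 10 were found among the 55488 genes of each table, and all 10 passed the filter on low counts that kept 16908 genes for testing. Bulk RNA-seq of dorsal skin was compared between 4 libraries from TPH1 knockout (Tph1 knockout) mice, which the labels describe as derived from the wild type, and 4 libraries from wild-type (WT) mice, all 3 months of age. Tph1 encodes the enzyme that limits serotonin synthesis outside the brain. Strain, sex, litter, knockout allele and any Cre driver are not named in the labels. Nor do they state whether different libraries are different animals, so the spread behind every p-value may be technical.

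T cells recognise their targets through a receptor whose alpha and beta, or gamma and delta, chains bind antigen. The CD3 delta, epsilon and gamma chains and the CD247 (zeta) chain carry the signal into the cell. Mouse epidermis is populated by dendritic epidermal T cells, gamma delta T cells that reside between keratinocytes, while alpha beta T cells, regulatory T cells and few natural killer cells lie mainly in the dermis and around hair follicles. Natural killer cells kill without an antigen receptor of this kind, through granules of perforin and granzymes, and share several surface molecules with gamma delta T cells.

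The 4 genes of the signalling chains are shown by their promoters, because they encode parts of a single receptor complex and Cd3d, Cd3e and Cd3g lie side by side on chromosome 9. In GRCm38, Cd3d (44981786 to 44987339, plus strand) and Cd3g (44969572 to 44980431, minus strand) are transcribed away from each other with 1354 bases between them, and Cd3e (44998740 to 45009627, minus strand) lies 11400 bases beyond Cd3d. Cd247 is on the plus strand of chromosome 1, from 165788681 to 165877277. Nkg7 is added because it was the only one of the 10 genes whose libraries did not overlap between genotypes. Each window, from RefSeq on GRCm38.p6, runs 5′ to 3′ from 250 bases before to 50 bases after the annotated start. Capitals mark matches on either strand to 4 motifs known from lymphocyte genes. The ETS core was searched as AGGAAG. The RUNX motif was searched as TGTGGT. The GATA motif was searched as AGATAA. The E-box was searched as CAGGTG.
Cd3d, chr9:44981536-44981835, plus strand: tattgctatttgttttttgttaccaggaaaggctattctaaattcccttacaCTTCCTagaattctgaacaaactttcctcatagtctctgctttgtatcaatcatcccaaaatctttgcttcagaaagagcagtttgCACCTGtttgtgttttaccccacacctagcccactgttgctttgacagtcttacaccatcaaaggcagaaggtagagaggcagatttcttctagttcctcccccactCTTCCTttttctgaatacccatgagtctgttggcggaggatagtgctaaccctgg
Cd3e, chr9:45009562-45009861, minus strand: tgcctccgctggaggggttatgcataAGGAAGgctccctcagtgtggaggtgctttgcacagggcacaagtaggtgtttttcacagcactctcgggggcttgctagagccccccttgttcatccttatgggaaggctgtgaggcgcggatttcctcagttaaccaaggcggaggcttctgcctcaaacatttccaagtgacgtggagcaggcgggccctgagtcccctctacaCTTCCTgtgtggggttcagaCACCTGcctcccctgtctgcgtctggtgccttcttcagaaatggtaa
Cd3g, chr9:44980382-44980681, minus strand: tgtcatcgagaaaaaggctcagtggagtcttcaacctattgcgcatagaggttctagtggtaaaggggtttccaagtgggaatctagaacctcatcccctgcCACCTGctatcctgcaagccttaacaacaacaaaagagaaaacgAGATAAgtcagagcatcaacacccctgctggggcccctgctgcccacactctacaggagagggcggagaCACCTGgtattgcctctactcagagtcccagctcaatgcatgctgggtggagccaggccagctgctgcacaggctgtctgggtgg
Cd247, chr1:165788431-165788730, plus strand: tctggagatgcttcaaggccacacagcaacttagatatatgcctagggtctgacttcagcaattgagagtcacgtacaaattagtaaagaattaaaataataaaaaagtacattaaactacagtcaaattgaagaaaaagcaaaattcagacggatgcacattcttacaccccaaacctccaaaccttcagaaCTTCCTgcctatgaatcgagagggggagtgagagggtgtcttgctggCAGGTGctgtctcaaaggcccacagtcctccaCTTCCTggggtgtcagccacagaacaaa
Nkg7, chr7:43436888-43437187, plus strand: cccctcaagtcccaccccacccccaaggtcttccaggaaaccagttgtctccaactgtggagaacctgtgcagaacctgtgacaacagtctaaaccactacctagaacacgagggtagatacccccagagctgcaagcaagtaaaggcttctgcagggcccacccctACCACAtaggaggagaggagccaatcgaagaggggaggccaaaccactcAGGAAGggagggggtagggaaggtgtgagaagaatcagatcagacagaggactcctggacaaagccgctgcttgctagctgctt
The E-box letters occurred in the windows of all 4 signalling chains, and in 20.2% of the 32851 RefSeq windows of this length. AGGAAG was found in the windows of Cd3d, Cd3e and Cd247 (35.4% of all windows), and AGATAA in that of Cd3g (11.2%). Nkg7 held AGGAAG and TGTGGT (16.8% of all windows). No matches among these motifs overlapped, and a match describes letters only. RefSeq windows were given for 6 of the 10 genes, the sixth being Xcl1.

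The libraries held 20531601 to 24678638 expected counts. Against that depth the 10 genes were scarce, with 10 to 281 counts per gene and library. Tph1 itself had 0 counts in all 4 knockout libraries and 18, 0, 27 and 11 counts in wild type replicates 1 to 4, so the targeted gene does not separate wild type replicate 2 from the knockouts. Tph1 knockout replicate 3 was the highest knockout library for 9 of the 10 genes. Wild type replicate 2 was the highest wild-type library for 7. Fits without each of them are given beside the genes whose values they move. Leaving out the highest library of a genotype lowers the mean of that genotype, so the direction of such moves follows from the choice.

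None of the 10 genes passed the test between genotypes (edgeR quasi-likelihood test, adjusted p under 0.05), where 0.651% of all tested genes passed, 0.532% lower in knockout and 0.118% higher, so 0 of 10 is close to that background. Log2 fold changes (knockout over wild type) were negative for 7 genes and positive for 3, where 46.9% of all tested genes were negative, with a median of -0.39 beside 0.03 over all tested genes. Adjusted p ranged from 0.266 for Nkg7 to 0.935 for Xcl1 in the edgeR test. At an unadjusted p under 0.05 there was 1 gene, Nkg7, which was lower in knockout, against 17.6% of all tested genes in either direction and 9.37% lower in knockout. The DESeq2 Wald test called 0 of the 10, with 1 at an unadjusted p under 0.05, while it called 6.13% of the genes to which it gave an adjusted p. The 95% intervals of the 10 log2 fold changes together spanned -1.82 to 1.44, and 9 of the 10 held 0.

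**Figure D1:**
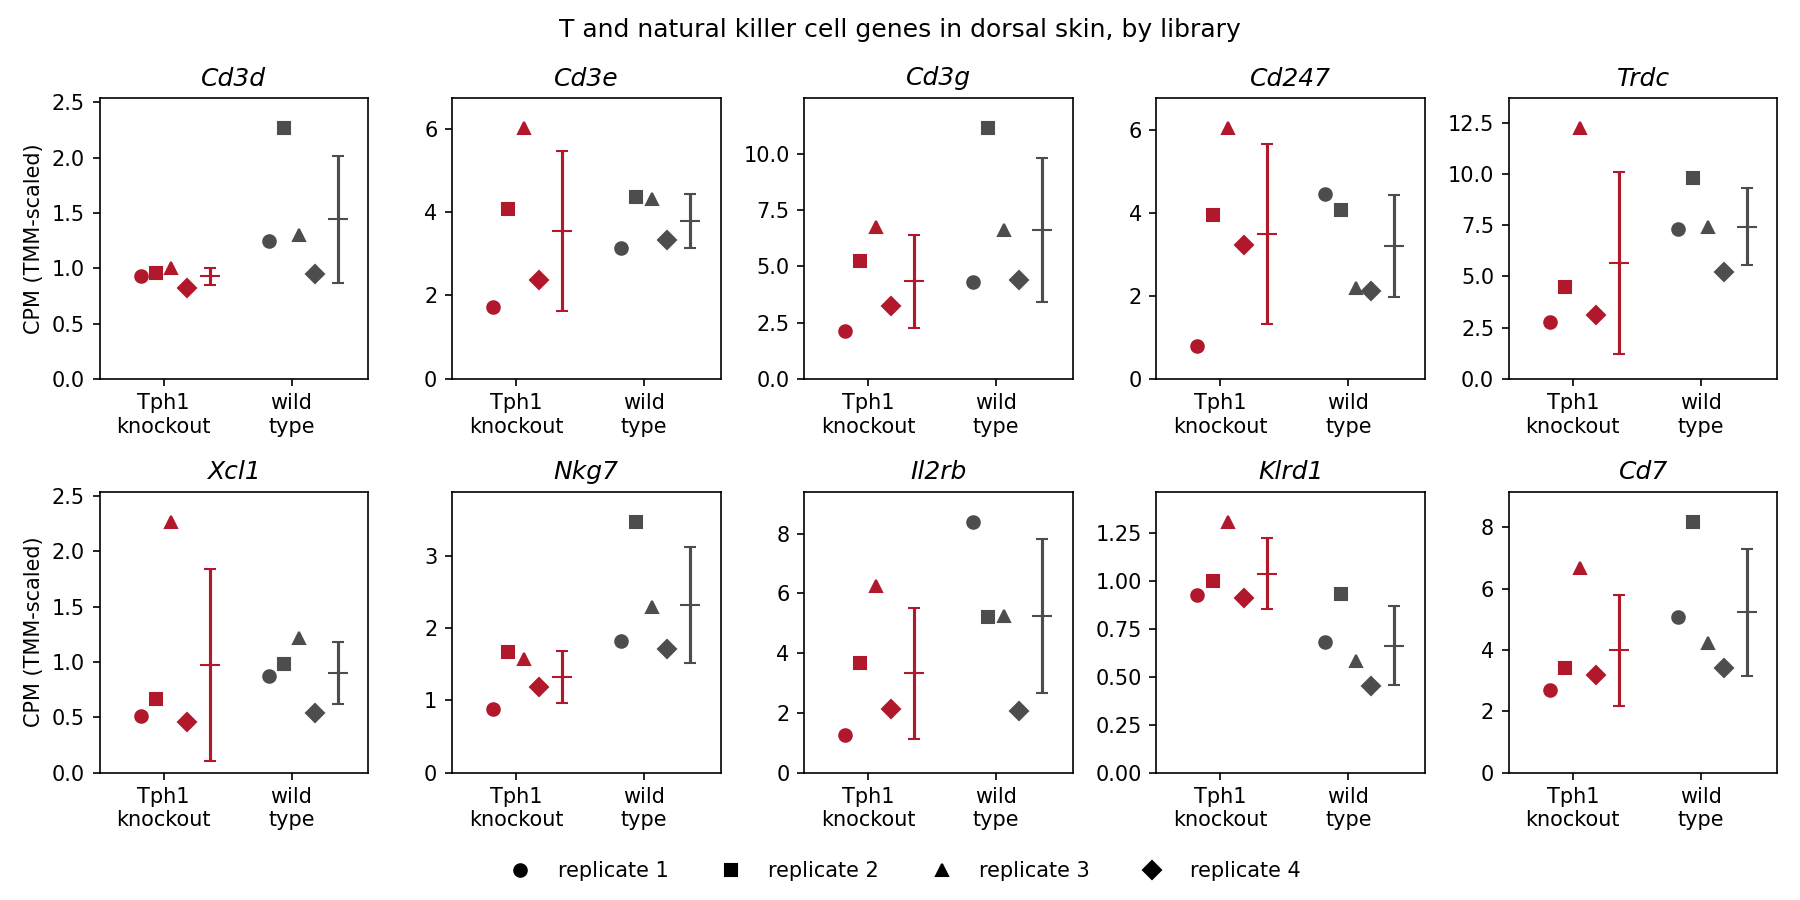
CPM (counts scaled to the TMM-adjusted library size) of each of the 10 genes in each library. Symbols are replicates, and bars give the mean and SD of 4 libraries per genotype. Knockout replicate 3 is the highest knockout library for 9 of the 10 genes, and only Nkg7 has all knockout libraries below all wild-type libraries.

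Of the signalling chains, Cd3e is the chain on which assembly of the whole receptor rests. It was measured at 1.71, 4.08, 6.01 and 2.37 CPM in knockout replicates 1 to 4, against 3.14, 4.35, 4.31 and 3.33 CPM in wild type replicates 1 to 4. The knockout values lay on both sides of the wild-type range, and the log2 fold change was -0.09 ± 0.38 (SE, 95% interval -0.93 to 0.75). Cd247, which encodes the chain with the most signalling motifs, was at 0.787, 3.96, 6.06 and 3.23 CPM in knockout and at 4.46, 4.09, 2.20 and 2.12 CPM in wild type. Its lowest and highest libraries were both knockouts, and the means were 3.51 ± 2.17 CPM in knockout and 3.22 ± 1.23 CPM in wild type (SD, n = 4 each). On the log2 scale the difference was 0.12 ± 0.52 (SE). Reads of Cd247 can also come from Pou2f1, which overlaps its exons on the other strand, since the library kit does not mark strand. The same holds for Cd3e, Xcl1 and Cd7, whose exons overlap the predicted genes Gm48719, Gm20743 and Gm11775, and for Foxp3, Ctsw and Il12rb2, which overlap Ccdc22, Fibp and Serbp1.

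Cd3g was at 2.13, 5.25, 6.75 and 3.23 CPM in knockout, against 4.31, 11.2, 6.61 and 4.41 CPM in wild type. Only wild type replicate 2 stood clear of the highest knockout library. The log2 fold change was -0.61 ± 0.42 (SE) with all libraries, -0.25 ± 0.39 without wild type replicate 2 and -0.90 ± 0.42 without knockout replicate 3. Cd3d was at 0.925, 0.958, 1.002 and 0.819 CPM in knockout and at 1.25, 2.27, 1.303 and 0.945 CPM in wild type. Its log2 fold change was -0.63 ± 0.35 (SE) with an edgeR adjusted p = 0.370. Here 2 of 4 knockout libraries lay below the lowest wild-type library, and without wild type replicate 2 the value was -0.34 ± 0.34 (SE). The Cd3d value depends on how gene length enters. RSEM's effective length of Cd3d ran from 278 to 1474 bases between libraries, averaging 1039 bases in knockout and 516.5 bases in wild type. Its annotated transcripts are 286, 299 and 1617 bases long, and 18 to 51 counts per library were divided among them. With effective length as an offset, the Cd3d log2 fold change was -1.55 ± 0.45 (SE, edgeR adjusted p = 0.155). In the authors' matrix, described as DESeq2-normalized, it was -1.54 ± 0.42 (SE, limma adjusted p = 0.140). Whether length entered that matrix was not tested. Cd3e, Cd3g and Cd247 had effective lengths within 1.315-fold across libraries.

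Trdc, the constant segment of the T cell receptor delta chain and the defining transcript of gamma delta T cells, was at 2.78, 4.50, 12.2 and 3.09 CPM in knockout, against 7.30, 9.82, 7.41 and 5.22 CPM in wild type. Replicates 1, 2 and 4 of the knockout lay below every wild-type library and replicate 3 above all of them. The log2 fold change was -0.39 ± 0.46 (SE, edgeR adjusted p = 0.675) with all libraries and -1.10 ± 0.29 (edgeR adjusted p = 0.120) without knockout replicate 3. Without wild type replicate 2 it was -0.25 ± 0.51 (SE). The segment lies on the plus strand of chromosome 14, from 54142851 to 54148868, and its exons overlap Trdv5 on the other strand.

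Partner segments of the gamma delta receptor did not pass either. Trgc1, a gamma chain constant segment, was at 1.30, 4.66, 6.14 and 2.05 CPM in knockout and at 3.14, 5.998, 3.77 and 3.24 CPM in wild type (log2 fold change -0.19 ± 0.46 SE). Trgc2 and Trgc4 had log2 fold changes of -0.06 ± 0.47 and 0.43 ± 0.52 (SE). The variable segments used by dendritic epidermal T cells were rare. Trdv4 had 2, 11, 36 and 5 counts in knockout and 20, 25, 4 and 7 counts in wild type, and Trgv5 was at most 1.09 CPM in knockout and 0.711 CPM in wild type, too low for the fit (exact permutation p = 1, two-sided over 70 assignments). Trgc1 and Trgc2 are near-identical copies, between which RSEM divides reads by probability.

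On the alpha beta side, Trac, the alpha chain constant segment, was at 0.139, 0.541, 1.26 and 0.319 CPM in knockout and at 0.605, 0.844, 1.17 and 0.270 CPM in wild type (log2 fold change -0.34 ± 0.66 SE). Per length, Trdc exceeded Trac in all libraries, by 1.15 to 4.21 times in TPM in knockout and 1.35 to 4.08 times in wild type. It lay below the beta chain constant segments Trbc2, in all libraries, and Trbc1, in all but wild type replicate 2. Trdc was at 0.80 to 5.06 TPM in knockout and 1.59 to 3.42 TPM in wild type. Trbc2 was at 24.4 to 30.1 TPM in knockout and 39.8 to 73.8 TPM in wild type. In CPM, Trbc2 was at 12.6, 12.3, 10.5 and 13.7 in knockout and at 19.4, 16.9, 30.9 and 26.9 in wild type, without overlap. Its log2 fold change was -0.94 ± 0.20 (SE, edgeR adjusted p = 0.0739), which DESeq2 called (adjusted p = 0.00256). The Trbc2 count did not follow the signalling chains across libraries, running from 52.7 to 227 per 100 counts of the CD3 and Cd247 chains in knockout and from 77.2 to 249 in wild type. Trbc1, its near-identical copy, was at 1.49 ± 1.02 CPM in knockout and 2.29 ± 0.940 CPM in wild type (SD, n = 4 each), and the division of reads between the copies is uncertain.

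Genes of T cell subsets had few counts, beside a counting limit of 3 counts, which is 0.113 to 0.139 CPM per library. Cd4, the coreceptor of helper T cells, was at 0.278, 0.333, 2.31 and 0.273 CPM in knockout and at 0.907, 0.889, 0.404 and 0.720 CPM in wild type, with the highest value again in knockout replicate 3. Cd8a and Cd8b1 did not exceed 0.416 and 0.182 CPM in knockout, or 0.378 and 0.400 CPM in wild type. Foxp3, the factor of regulatory T cells, was at 0.308 ± 0.216 CPM in knockout and 0.369 ± 0.224 CPM in wild type (SD, n = 4 each, exact permutation p = 0.714). Il17a had no count in any library.

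Nkg7, which encodes a membrane protein of cytotoxic granules, was lower in every knockout library than in any wild-type library. It was at 0.879, 1.67, 1.57 and 1.18 CPM in knockout, against 1.81, 3.47, 2.29 and 1.71 CPM in wild type. In CPM the margin was narrow, since the highest knockout and the lowest wild-type values were 1.67 and 1.71 CPM. Per length they were 3.34 and 4.35 TPM, with effective lengths of 445 to 738 bases across the libraries. The log2 fold change was -0.80 ± 0.34 (SE, 95% interval -1.57 to -0.04) and did not pass (edgeR adjusted p = 0.266). It was -0.56 ± 0.34 (SE) without wild type replicate 2 and -0.89 ± 0.39 without knockout replicate 3. With effective length as an offset it was -0.96 ± 0.29 (SE) and did not pass either (edgeR adjusted p = 0.172). All knockouts below all wild types was seen in 5.65% of tested genes, and non-overlap in either direction in 11%. Nkg7 lies on chromosome 7, from 43437073 to 43438249 on the plus strand, 3.21 Mb from Tph1, and the part of that position in its value was not tested.

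Klrd1, which encodes CD94, the common partner of the NKG2 receptors, ran the other way from most of the genes. It was at 0.925, 0.999, 1.307 and 0.910 CPM in knockout, against 0.681, 0.933, 0.584 and 0.450 CPM in wild type. Only wild type replicate 2 reached into the knockout range, and the log2 fold change was 0.64 ± 0.36 (SE, edgeR adjusted p = 0.372). Counts were few, at 20, 24, 30 and 20 in knockout and 18, 21, 13 and 10 in wild type.

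The receptors that define natural killer cells were at or near 0, so the label of the set rests on genes that T cells share with them. Ncr1, the gene of NKp46, had 0 counts in all knockout libraries and at most 3 in wild type, and Klrb1c, the gene of NK1.1, had at most 7 counts in knockout and 8 in wild type. The granzyme genes Gzma and Gzmb had at most 2 counts each in knockout, against 5 and 4 in wild type. Perforin was measurable: Prf1 was at 0.972, 2.37, 4.62 and 1.82 CPM in knockout and at 2.23, 5.20, 4.63 and 1.49 CPM in wild type (log2 fold change -0.47 ± 0.52 SE). Ifng did not exceed 0.167 CPM in knockout or 0.449 CPM in wild type.

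Il2rb encodes the beta subunit through which interleukin 2 and interleukin 15 signal. It was at 1.25, 3.66, 6.23 and 2.14 CPM in knockout, against 8.39, 5.20, 5.26 and 2.07 CPM in wild type. The genotypes overlapped across most of their range, with a log2 fold change of -0.65 ± 0.52 (SE, 95% interval -1.82 to 0.51), the lowest bound among the 10 genes. It was -1.15 ± 0.50 (edgeR adjusted p = 0.285) without knockout replicate 3 and -0.68 ± 0.60 (SE) without wild type replicate 2. Its shared gamma subunit Il2rg had a log2 fold change of -0.42 ± 0.21 (SE), and the ligand gene Il15 was at 6.83 ± 1.38 CPM in knockout and 6.83 ± 2.0035 CPM in wild type (SD, n = 4 each).

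Xcl1 encodes the chemokine lymphotactin, which activated T and natural killer cells release. It was at 0.509, 0.666, 2.27 and 0.455 CPM in knockout, against 0.870, 0.977, 1.21 and 0.540 CPM in wild type. A single knockout library, replicate 3, raised the knockout mean to 0.974 ± 0.866 CPM, beside 0.900 ± 0.280 CPM in wild type (SD, n = 4 each). The log2 fold change was 0.12 ± 0.56 (SE) with that library and -0.72 ± 0.45 (edgeR adjusted p = 0.426) without it. Xcr1, the receptor of this chemokine on cross-presenting dendritic cells, was at 0.382 ± 0.179 CPM in knockout and 0.349 ± 0.183 CPM in wild type (SD, n = 4 each).

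Cd7, an immunoglobulin family surface protein of T and natural killer cells, was at 2.68, 3.41, 6.67 and 3.19 CPM in knockout, against 5.07, 8.17, 4.22 and 3.42 CPM in wild type. Knockout replicates 1, 2 and 4 lay below the wild-type range and replicate 3 inside it. Its log2 fold change was -0.39 ± 0.36 (SE, edgeR adjusted p = 0.598). It was -0.75 ± 0.33 (edgeR adjusted p = 0.283) without knockout replicate 3 and -0.10 ± 0.35 (edgeR adjusted p = 0.903) without wild type replicate 2.

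**Figure D2:**
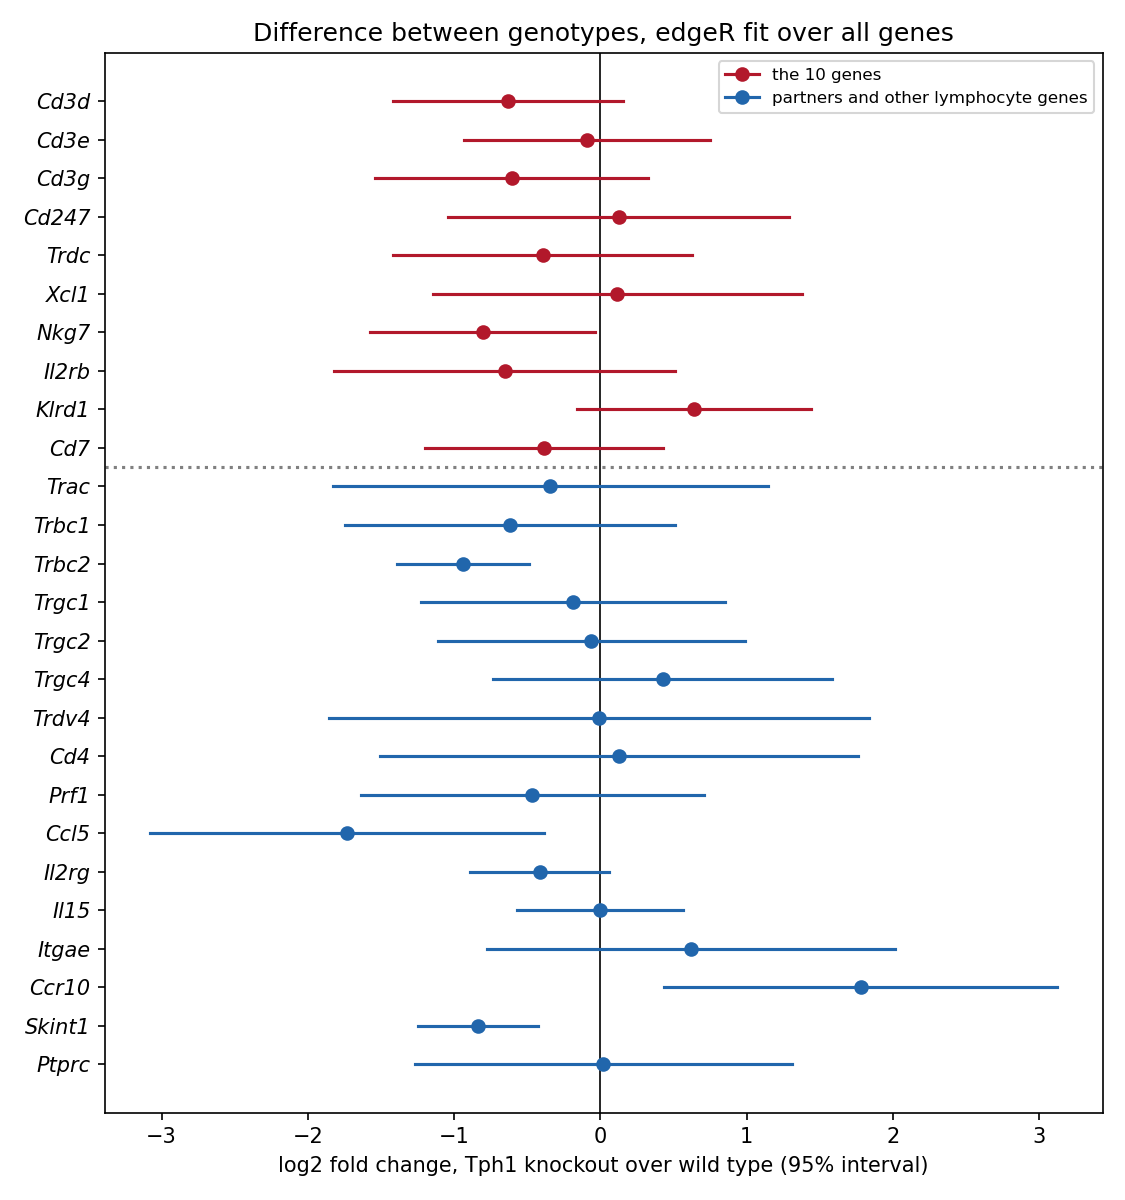
Log2 fold change of knockout over wild type with its 95% interval from the edgeR fit over all genes, for the 10 genes (top) and for partner and other lymphocyte genes (bottom). Among the 10 genes only the Nkg7 interval leaves out 0, and no gene shown passed at an adjusted p under 0.05.

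Within a genotype, single libraries were high or low for most of the genes at once. Knockout replicate 3 was the highest of all 8 libraries for Cd3e, Cd247, Trdc, Xcl1 and Klrd1. Knockout replicate 1 was the lowest of all libraries for 7 genes: Cd3e, Cd3g, Cd247, Trdc, Nkg7, Il2rb and Cd7. Among wild types, replicate 4 was lowest for 8 genes. The level of the set, the mean log2(CPM + 1) of its 10 genes, was 1.23, 1.82, 2.34 and 1.51 in knockout and 2.01, 2.34, 1.99 and 1.61 in wild type, so its highest values in both genotypes were alike.

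**Figure D3:**
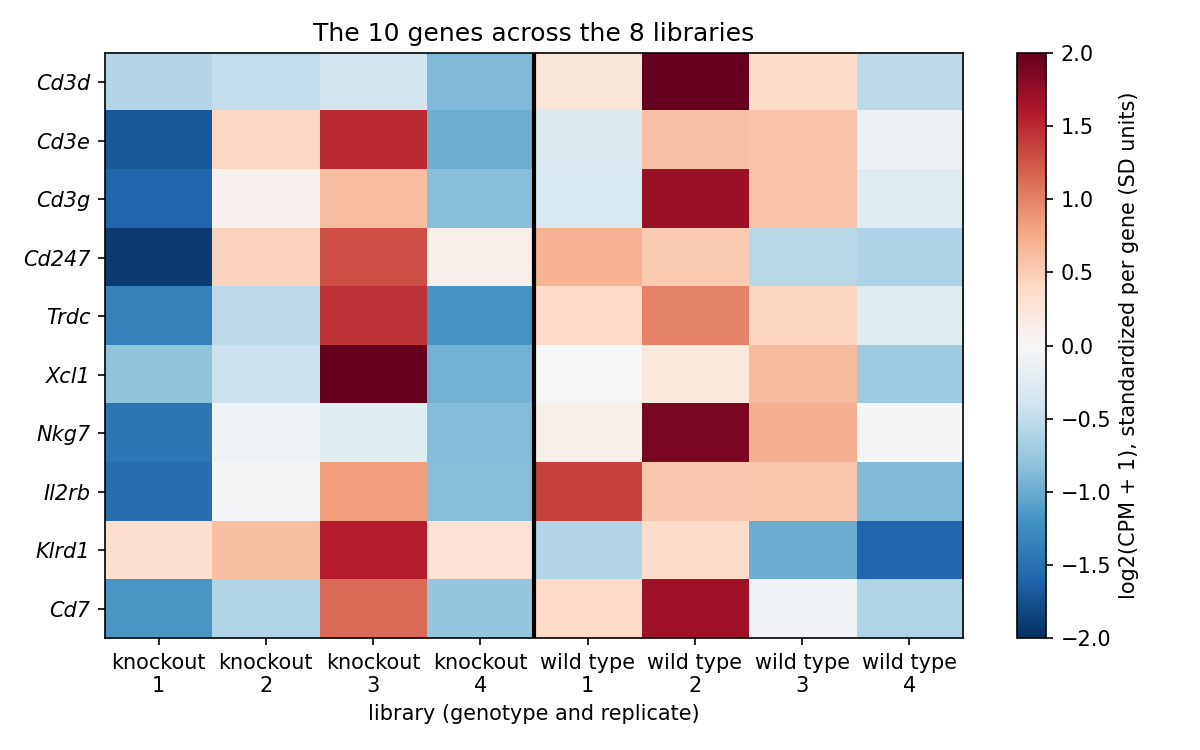
Log2(CPM + 1) of the 10 genes, standardized per gene over the 8 libraries, with knockout libraries left of the line. Columns of like colour, such as knockout replicates 1 and 3, show that most genes are low or high in the same libraries, and Klrd1 departs from them.

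As a description over the same 8 libraries, the Pearson correlation of a gene's log2 CPM with the mean of the other genes was 0.93 for Trdc and Cd7, 0.90 for Cd3g, 0.85 for Cd3e and 0.83 for Il2rb. It was 0.62 for Cd3d and 0.17 for Klrd1. The points share libraries, their depth and their cell composition, and both genotypes enter. Outside the lists, the genes most like the mean profile of the 10 were Aplp2, Clec4n, Ltb, B4galt2 and Aldh3a1, with correlations of 0.95, 0.95, 0.94, 0.94 and 0.94 over 8 libraries. These genes were picked for the highest correlations among the tested genes, so high values follow from the choice. Ltb, the lymphotoxin beta gene of lymphocytes, was at 0.702 ± 0.408 CPM in knockout and 0.848 ± 0.331 CPM in wild type (SD, n = 4 each). Aplp2 was at 321 ± 56.6 CPM in knockout and 352 ± 40.0 CPM in wild type (SD, n = 4 each), far above the levels of the 10 genes.

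Precision rests on the spread between libraries and on the counts, which were 10 to 281 per gene and library. The biological coefficient of variation that edgeR fitted had a median of 0.407 over the 10 genes, beside 0.244 over all tested genes and 0.360 over the 4185 tested genes of the same abundance range. It was largest for Xcl1 (0.529) and smallest for Klrd1 (0.301).

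Leaving out knockout replicate 3 moved the median log2 fold change of the 10 genes to -0.74, with 9 negative, 0 called, and 4 genes (Trdc, Cd7, Nkg7 and Il2rb) at an unadjusted p under 0.05, where 17.2% of all genes in that fit were. Leaving out wild type replicate 2 moved it to -0.17, with 7 negative, 0 called and 0 at an unadjusted p under 0.05, beside 17.8% of all genes in that fit. Without both libraries the median was -0.51, with 9 negative and 0 called (edgeR). Both libraries were chosen as the highest of their genotype for most of the 10 genes. The direction of each single move follows from that choice, and the counts at an unadjusted p under 0.05 carry this limit. The genes called over the whole table numbered 170 without knockout replicate 3, 88 without wild type replicate 2 and 167 without both, against 110 with all libraries.

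**Figure D4:**
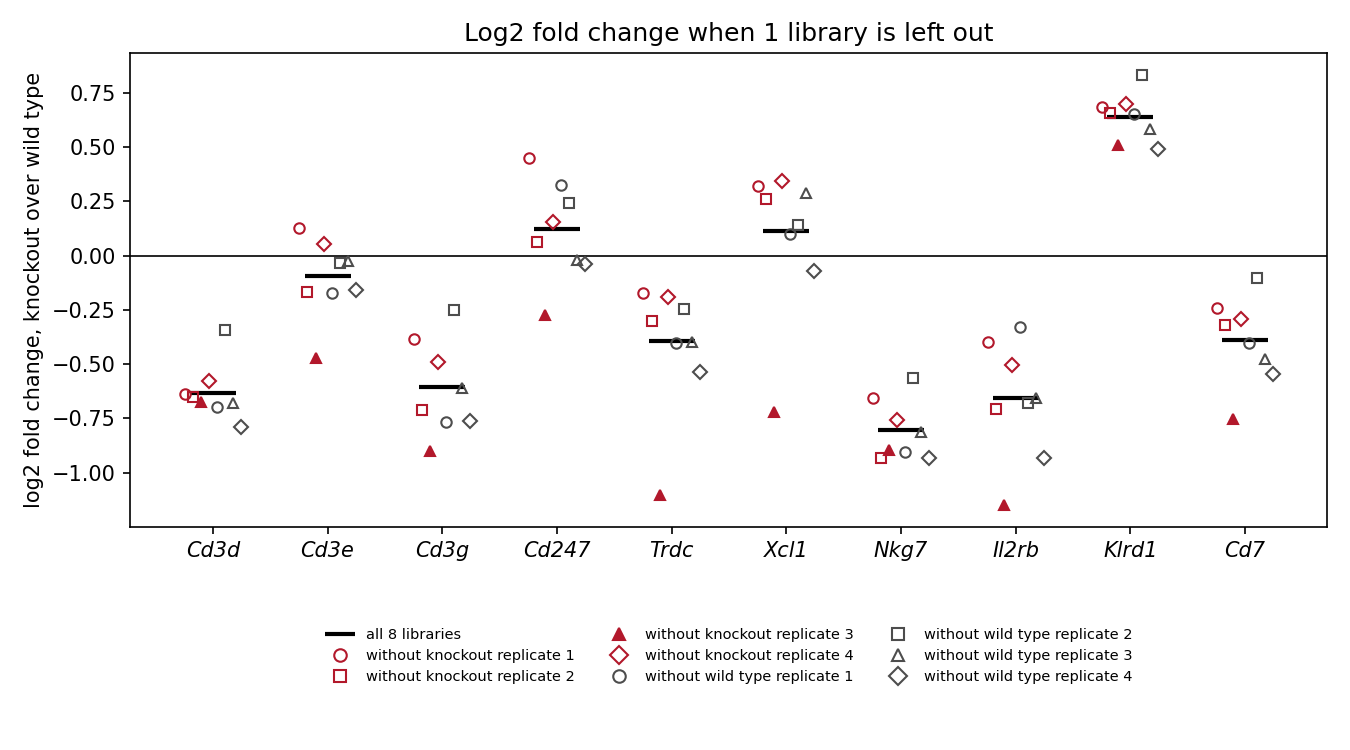
Log2 fold change of each gene with all 8 libraries (bar) and with 1 library left out (symbols, filled for knockout replicate 3). Without knockout replicate 3 the value is the lowest for Cd3e, Cd3g, Cd247, Trdc, Xcl1, Il2rb and Cd7, and the sign of Cd3e, Cd247 and Xcl1 varies with the library left out.

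Bulk RNA cannot tell fewer lymphocytes from less RNA per lymphocyte, and leukocyte genes are therefore set beside the 10 genes. Of 8 pan leukocyte genes 0 were called, with 7 negative and a median log2 fold change of -0.61. Their summed CPM ran from 50.7 to 146 in knockout and from 96.0 to 168 in wild type. Per 100 CPM of these genes, the 10 lymphocyte genes held 23.6, 38.4, 34.3 and 40.6 CPM in knockout and 22.1, 42.3, 36.9 and 21.6 CPM in wild type (exact permutation p = 0.686, two-sided). The part of leukocyte content in the values of the 10 genes was not tested. Ptprc, the gene of CD45, was at 3.98, 7.20, 24.1 and 4.55 CPM in knockout and at 16.4, 9.86, 5.39 and 7.61 CPM in wild type, again highest in knockout replicate 3.

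**Figure D5:**
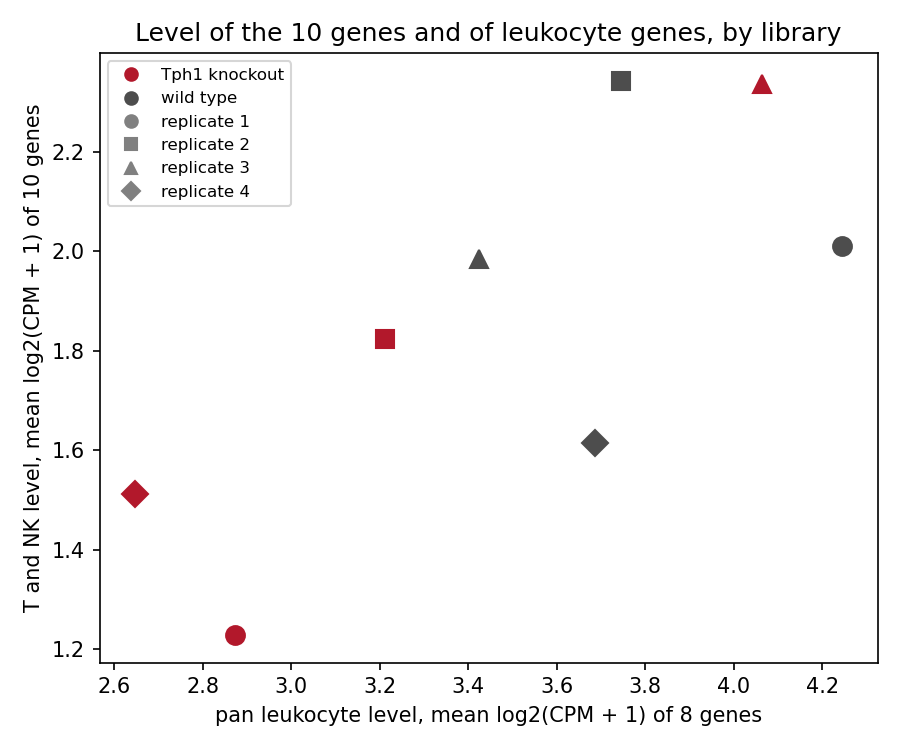
Level of the 10 genes against the level of 8 pan leukocyte genes in each library, both as mean log2(CPM + 1). Knockout replicates 1, 2 and 4 have the lowest leukocyte levels, while knockout replicate 3 lies among the wild types on both axes.

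Markers of other cell types also differed between libraries. Macrophage genes summed to 119 to 306 CPM in knockout and 197 to 312 CPM in wild type (0 of 8 called), and Langerhans and dendritic cell genes to 371 to 1067 CPM in knockout and 761 to 1142 CPM in wild type (0 of 8 called). Of 8 suprabasal keratinocyte genes 3 fell, with sums of 4064 to 6643 CPM in knockout and 10149 to 13038 CPM in wild type. Of 8 skeletal muscle genes 0 were called, with sums of 45751 to 85001 CPM in knockout and 11666 to 77753 CPM in wild type. Of 12 genes that respond to tissue handling 1 fell, and 11 were at an unadjusted p under 0.05, with sums of 1489 to 4242 CPM in knockout and 2123 to 14216 CPM in wild type. Of 8 B and plasma cell genes only 1 was high enough to test and 0 were called, with sums of 55.2 to 117 CPM in knockout and 31.4 to 108 CPM in wild type. Their part in the lymphocyte values was not tested.

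The wider T cell receptor pathway gave the same count. Of 29 genes of receptor signalling and costimulation, 20 were tested and 0 called, with a median log2 fold change of -0.24 beside 0.03 over all genes. Cd27, a costimulatory receptor, was at 1.71, 0.916, 1.307 and 1.14 CPM in knockout and at 0.756, 0.489, 0.404 and 0.765 CPM in wild type. Every knockout library was higher, without passing (log2 fold change 1.06 ± 0.37 SE, with edgeR adjusted p = 0.204). The checkpoint gene Ctla4 had a log2 fold change of -0.93 ± 0.36 and Thy1, which skin fibroblasts also express, of -0.62 ± 0.26 (SE). Of 9 receptor segments 8 were tested and 0 called (median -0.26).

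Of 18 cytotoxic and effector genes, 7 were tested and 0 called, with a median of -0.47. Ccl5, a chemokine of effector lymphocytes, was at 0.139, 0.291, 0.479 and 0.0910 CPM in knockout and at 1.02, 1.20, 0.854 and 0.315 CPM in wild type. Only wild type replicate 4 lay within the knockout range (log2 fold change -1.73 ± 0.60 SE, with edgeR adjusted p = 0.201). The cystatin gene Cst7 and the protease gene Ctsw were at -0.69 ± 0.39 and -0.49 ± 0.30 (SE) on that scale. Of 22 natural killer receptor and adaptor genes, 7 were tested and 0 called, with a median of -0.71. The adaptors Fcer1g (-0.85 ± 0.195 SE, edgeR adjusted p = 0.0903), Hcst (-1.22 ± 0.44) and Tyrobp (-0.84 ± 0.34) had the smallest p. The Hcst counts were 4, 5, 7 and 3 in knockout, near the counting limit of 3, and 12, 10, 13 and 11 in wild type. Myeloid cells and mast cells share Fcer1g and Tyrobp. Mast cell genes summed to 21.7 to 77.6 CPM in knockout and 38.1 to 129 CPM in wild type (6 of 8 tested, 0 called). Hcst and Tyrobp lie 16.2 Mb from Tph1 on chromosome 7.

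Among 15 cytokine receptors and ligands 11 were tested and 0 called (median -0.00093), and Ifngr1 and Il12rb2 were at -0.52 ± 0.18 and -0.35 ± 0.17 (SE, log2). Among 20 lymphoid transcription factors 16 were tested and 0 called (median -0.10). Zbtb16 (0.80 ± 0.24) and Rora (-0.33 ± 0.15, SE) were among those with the smallest p, and were at 55.6 to 171 CPM, above the levels of the 10 lymphocyte genes. Among 16 homing and residency genes 11 were tested and 0 called (median -0.18). Ccr10, the skin homing receptor of T cells, was at 0.416, 1.83, 1.70 and 1.14 CPM in knockout and at 0.605, 0.400, 0.359 and 0.0900 CPM in wild type, with knockout replicate 1 inside the wild-type range (log2 fold change 1.78 ± 0.60 SE, edgeR adjusted p = 0.192). Ccl22 and S1pr1 followed with -1.0001 ± 0.44 and 0.44 ± 0.25 (SE). Itgae, the integrin chain that holds T cells in epithelium, was at 0.833, 1.92, 7.84 and 2.55 CPM in knockout and at 3.78, 1.64, 1.66 and 1.44 CPM in wild type (0.62 ± 0.62 SE). The activation marker Cd69 was at 0.418 ± 0.132 CPM in knockout and 0.527 ± 0.398 CPM in wild type (SD, n = 4 each).

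The list of keratinocyte ligands of epidermal T cells held 8 genes, of which 6 were tested and 0 called. All 6 had negative log2 fold changes, with a median of -0.33. Bulk skin does not tell which cells these transcripts came from, and this was not tested. Skint1, which selects dendritic epidermal T cells in the thymus, was at 4.997, 4.79, 5.32 and 4.14 CPM in knockout, against 8.89, 8.40, 9.93 and 7.11 CPM in wild type. The genotypes did not overlap, and the log2 fold change of -0.83 ± 0.18 (SE) did not pass in edgeR (adjusted p = 0.0801) but did in DESeq2 (adjusted p = 0.00113). Cd1d1 and Plxnb2 were at -0.60 ± 0.36 and -0.27 ± 0.18 (SE).

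Levels of the 10 genes can be ordered per length in the deposited TPM. Pooled over the 8 libraries of both genotypes, the medians descended in the order Cd3g (7.19 TPM), Cd7 (5.91), Cd3e (3.95), Nkg7 (3.85), Cd247 (3.27), Xcl1 (2.78), Cd3d (2.47), Trdc (2.10), Klrd1 (1.94) and Il2rb (1.40). Only Cd7 was above its next gene, Cd3e, in all 8 libraries, and the ranges of every pair of neighbours overlapped. The order differed within genotypes. In knockout Il2rb was the lowest, at a median of 0.885 TPM, against 1.68 TPM in wild type. Klrd1 had a median of 2.19 TPM in knockout, above Xcl1, Cd3d and Trdc there, against 1.315 TPM in wild type, where it was the lowest. Cd3d had a median of 1.255 TPM in knockout, above only Trdc and Il2rb, against 3.66 TPM in wild type, where it stood above Xcl1, Cd247, Trdc, Il2rb and Klrd1. TPM divides by effective length, which for Cd3d averaged 1039 bases in knockout and 516.5 bases in wild type. In CPM its means were 0.926 ± 0.078 and 1.44 ± 0.57 (SD, n = 4 each). Effective lengths of Klrd1 and Nkg7 varied 1.83-fold and 1.66-fold across libraries. The part of these lengths in the order was not tested. Cd3g and Cd7 led in both genotypes, at 5.77 and 4.88 TPM in knockout against 8.34 and 7.74 TPM in wild type.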

How the data were processed

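Dorsal skin RNA was profiled in 4 Tph1 knockout and 4 wild-type libraries. RNA was isolated on Qiagen columns before NEBNext Ultra library preparation, per the labels. That kit keeps no strand. Tools named by the submitters, without a role, are RSEM 1.31, STAR 2.7.6a, DESeq and DESeq2, per the submitters' processing notes, and the build is GRCm38. The deposited expected counts are RSEM's estimates of reads per gene, and RSEM divides reads shared by near-identical genes. The deposited TPM values are scaled to effective gene length and library, per the file headers, and served for order of levels. The deposited FPKM values entered no test. Effective lengths, another RSEM value in the deposited tables, entered 1 alternative. The authors' deposited matrix of 17382 genes holds a normalized signal, described as DESeq2-normalized per the labels, and served for symbols and 1 alternative.

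Rounded expected counts entered edgeR 4.0.16 (R 4.3.3): filterByExpr by genotype (minimum count 10, minimum total 15), TMM scaling, robust quasi-likelihood F test, Benjamini-Hochberg adjustment over 16908 genes, adjusted p under 0.05. Standard errors are |log2 fold change| over the root of F. CPM is relative to the TMM-scaled library size. For genes below the filter, the difference of mean CPM had a two-sided exact permutation p, which cannot go below 0.0286. Alternatives used DESeq2 1.42.0 and limma 3.58.1 (log2(value + 1)), other scalings, no filter and fewer libraries. The fit was tested on simulated counts. Coordinates are from GENCODE M21 on GRCm38, promoters from RefSeq on GRCm38.p6.

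Named genes were the 10 genes, 30 partner and subset genes, every called gene and the 3 smallest p of each list, and the 5 genes most like the mean profile. The values of 1 gene that this rule names are not reported here. The genes and lists were chosen with earlier results of these data known. Floors of 3 counts cover counting error only.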

Additional observations from a re-analysis of the deposited data

Results flagged for a closer look

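Single libraries lay far from the other 3 of their genotype in 9 of 126 groups of 4 searched. Chance would give about 1 in 20 if the groups were independent. The groups share the same libraries, so whether 9 of 126 exceeds chance was not tested. Groups with fewer than 10 counts in every library were not searched. In Tph1 knockout replicate 3, the highest knockout library was far from the others for Xcl1 (2.27 CPM), Cd4 (2.31 CPM), Ptprc (24.1 CPM) and Ltb (1.307 CPM), and for the mean log2(CPM + 1) of the cytokine receptor and ligand list (2.60). Zbtb16 was low in Tph1 knockout replicate 4 (111 CPM). In wild type, Itgae was high in replicate 1 (3.78 CPM), Ifng was high in replicate 3 (0.449 CPM), and the level of the cytokine receptor and ligand list was low in replicate 2 (2.39).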

How the results depend on the processing

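None of the 10 genes was called by edgeR, DESeq2 or limma under any of the 15 alternatives, with edgeR adjusted p never below 0.120 and limma adjusted p never below 0.140. The number of genes called over the whole table was 994 with the DESeq2 Wald test, 167 without wild type replicate 2 and Tph1 knockout replicate 3 together, and 8 to 170 without 1 library. The difference in the level of the 10 genes was -0.26, and -0.47 to -0.10 without 1 library, less than 1 SD away. Directions turned as follows, and the cause was not tested. Without both libraries the log2 fold change was -0.16 for Cd247, -0.70 for Xcl1, -1.20 for Cd4, -0.17 for Xcr1, 0.13 for Il15, -0.92 for Ptprc and -0.40 for Itgae. In the authors' matrix with limma it was -0.14 for Cd247, -0.14 for Xcl1, -0.16 for Cd4, -0.25 for Ptprc and 0.31 for Cd69. With upper quartile scaling it was 0.027 for Trdv4 and 0.021 for Il15, with the length offset 0.038 for Trdv4, and with no filter 0.0015 for Il15. Without 1 library the values ran from -0.47 to 0.13 for Cd3e, -0.27 to 0.45 for Cd247, -0.72 to 0.35 for Xcl1, -0.59 to 0.084 for Trgc1, -0.36 to 0.21 for Trgc2, -1.16 to 0.46 for Trdv4, -1.29 to 0.42 for Cd4, -0.15 to 0.41 for Xcr1, -0.13 to 0.17 for Il15, -0.90 to 0.39 for Ptprc, -0.27 to 1.05 for Itgae, -0.76 to 0.11 for Cd69, -0.79 to 0.063 for Clec4n, -0.75 to 0.020 for Ltb, -0.32 to 0.00084 for B4galt2 and -0.25 to 0.067 for Aldh3a1. Trbc2 passed with no filter (-0.94, edgeR adjusted p = 0.0430), and DESeq2 called Trbc2, Skint1, Fcer1g (adjusted p = 0.00498) and Zbtb16 (adjusted p = 0.0492). No paired analysis was possible because replicate numbers here are only names given in record order.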
